A study of Drosophila melanogaster with 2 samples.

Results

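Called peaks of the GAGA factor on the X chromosome were described in Kc cells, an established Drosophila melanogaster cell line of embryonic origin. They were the 846 peaks whose chromosome is given as X in the deposited list of the ChIP sample, out of 3842 peaks on 11 chromosomes and scaffolds (22.02%). The assay was ChIP-seq, in which chromatin is immunoprecipitated and the recovered DNA sequenced, with an antibody named KW3-Trl-D2, and Trl is the gene that encodes the GAGA factor. The labels list 1 ChIP sample and 1 input sample, both from untreated Kc cells with no genotype or transgene named. The series design names chromatin input as the control and speaks of 2 replicates for ChIP-seq. The sources used here do not say whether the list pools libraries. The growth protocol in the labels describes collection of fly material rather than cell culture.

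The GAGA factor is a zinc-finger protein that binds runs of GA dinucleotides. It is known for keeping promoters free of nucleosomes, for its place at genes with paused polymerase such as those of heat shock, and for a part in Polycomb response elements and insulators. Its gene, Trithorax-like, belongs to the group that keeps homeotic genes active. On X, GA-rich elements have a further role in male flies, where the protein CLAMP binds them and the dosage compensation complex is recruited there. Kc cells are of female origin and do not assemble that complex.

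The list gives a start, an end and a score for each peak, with no read counts. Depth is therefore unknown, and a stretch without a peak is one in which the caller reported none, not one shown to lack binding. Each value below comes from this single list. With 1 ChIP sample no comparison could be tested against replicate error, so differences between X and other arms are given as values. Positions are 1-based on the BDGP5 assembly and run from the telomere side of X to its centromere side. Gene names and DNA sequence of that assembly were not used here.

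X carried 37.8 peaks per Mb up to the end of its last peak at 22352114, and its peaks covered 513 kb, or 2.29% of that length. The 4 large autosomal arms together carried 30.9 per Mb with 1.90% covered. Singly, 2R carried 33.3 per Mb, 3L 32.1, 3R 30.9 and 2L 27.6. The share covered was 2.12% on 2R, 1.97% on 3L, 1.93% on 3R and 1.61% on 2L. X over the 4 arms together gave a density ratio of 1.22, with an exact binomial 95% interval of 1.13 to 1.32. This interval covers counting error alone and treats peaks as independent, although many lay side by side. Among 44 windows of 500 kb on X, density ran from 8 to 88 peaks per Mb, with a median of 35 and an SD of 17.8. The 188 such windows of the autosomal arms ran from 2 to 100 per Mb, with an SD of 15.9. The highest was 100 on 2R and 96 on 3L, both above the highest on X. Single windows thus varied more than X and the autosomal arms differed in mean density. That spread is not the error of a mean density.

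Along X, dense and sparse stretches alternated, and the densest lay in the telomeric part of the arm. The 22 full windows of 1 Mb held between 18 and 68 peaks, with a median of 37 and an SD of 12.6. The fullest began at 3 Mb and held 68 peaks, followed by 56 from 7 Mb, 52 from 6 Mb, 51 from 2 Mb and 50 from 1 Mb. The emptiest were the last full window, from 21 Mb, with 18 peaks, and the windows from 0 and from 20 Mb with 23 each. They were followed by 26 from 17 Mb and 28 from 9 Mb. Of the 22 windows, 14 lay above the mean density of the autosomal arms and 8 below it.

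**Figure D1:**
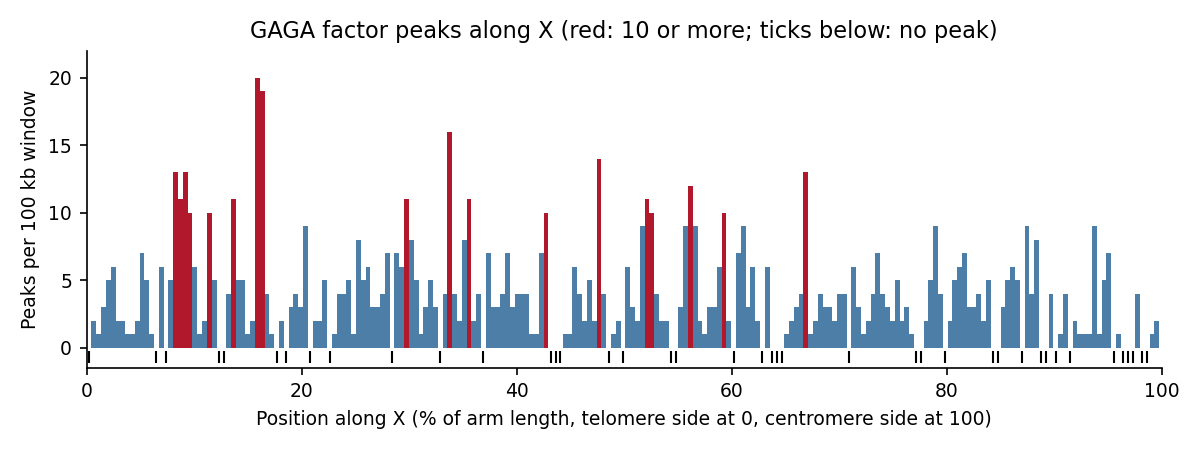
Number of peaks in each full 100 kb window of X (bars), by position in percent of arm length. Windows of 10 or more peaks are red, and ticks below the axis mark the 41 windows without a peak; the 2 fullest windows, with 20 and 19 peaks, stand side by side.

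Blocks drawn after seeing this profile summarise it. From 1 to 4 Mb there were 169 peaks, or 56.3 per Mb, which is 19.98% of the peaks of X. Density was 33.5 per Mb from 4 to 6 Mb, 54 per Mb from 6 to 8 Mb and 32.5 per Mb from 8 to 10 Mb. A broader zone from 10 to 14 Mb held 44.3 per Mb. Density was lower than in that zone from 14 to 18 Mb, at 29.3 per Mb, and from 18 to 20 Mb, at 37.5 per Mb. The latter was near the 37.8 per Mb of X as a whole. Both ends were thin, with 23 peaks in the first 1 Mb and 19.1 per Mb beyond 20 Mb.

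Median score and density did not follow one another closely along the arm. The median score per 1 Mb window was highest from 7 Mb, at 1019, and next highest from 2 Mb, at 673. The fullest window, from 3 Mb, had a median score of 454, against 351 on X as a whole and 401 on the autosomal arms. In the zone from 10 to 14 Mb the median was 280, so its many peaks were mostly of moderate score. Across the 22 windows, the number of peaks and their median score had a Pearson r of 0.39 and a Spearman rho of 0.28. The number of peaks and the number at 3100 or more, which is part of it, had an r of 0.68 and a rho of 0.54. Windows of 1 list share its depth, so these coefficients are a description.

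**Figure D2:**
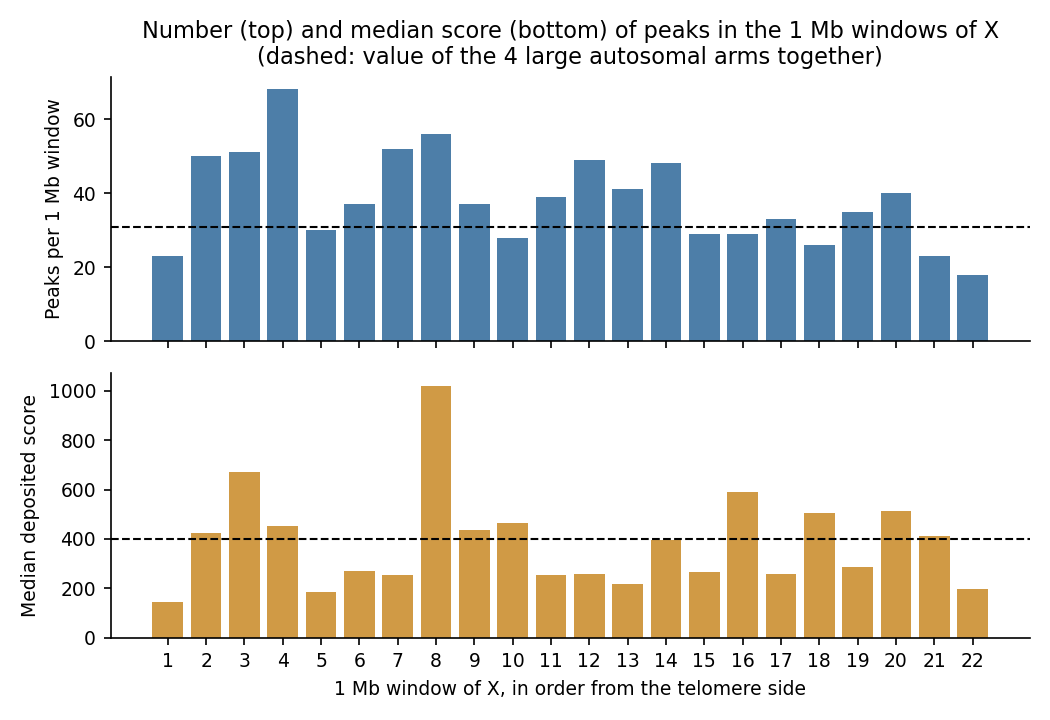
Number of peaks (top) and their median deposited score (bottom) in the 22 full 1 Mb windows of X, with the values of the 4 large autosomal arms together as dashed lines. The fourth window holds the most peaks, 68, while the eighth has the highest median score, 1019.

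The strongest peaks were unevenly placed. On X, 57 peaks (6.74%) scored 3100 or more, against 7.68% in the whole list, of which 51 had exactly 3100. Whether 3100 is an upper limit of the score is not stated in the sources used here, so these 51 cannot be ranked among themselves or against the 6 printed above 3100. Of these 57 peaks, 42 lay before the midpoint of the arm, among 473 peaks, and 15 beyond it, among 373. That is 8.88% of the peaks on the telomere side and 4.02% on the centromere side, a division made after the profile was seen. The windows from 3 Mb and from 7 Mb had 10 each, and no peak beyond 20 Mb reached 3100. The 57 strong peaks fell into 43 different 100 kb windows.

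At the scale of 100 kb, empty and crowded windows stood close together. The 44 fullest of the 223 windows (19.7%) held 423 of the peaks. No peak was present in 41 windows (18.4%), close to the 19.7% of windows on the autosomal arms. Among single arms, 2L had 25.9% of its windows empty, 2R 19.9%, 3L 19.5% and 3R 14.7%. At the other extreme, 18 windows of X (8.07%) held 10 or more peaks, against 36 of 948 (3.80%) on the autosomal arms. The share of such windows was between 3.07% and 4.76% on each of those arms. These 18 windows held 225 peaks, or 26.6% of those in full windows. In the other windows X had 30.2 peaks per Mb and the autosomal arms 27.0, a ratio of 1.12. The windows left out were chosen by their own counts and were a larger share on X, which by itself lowers this ratio.

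**Figure D3:**
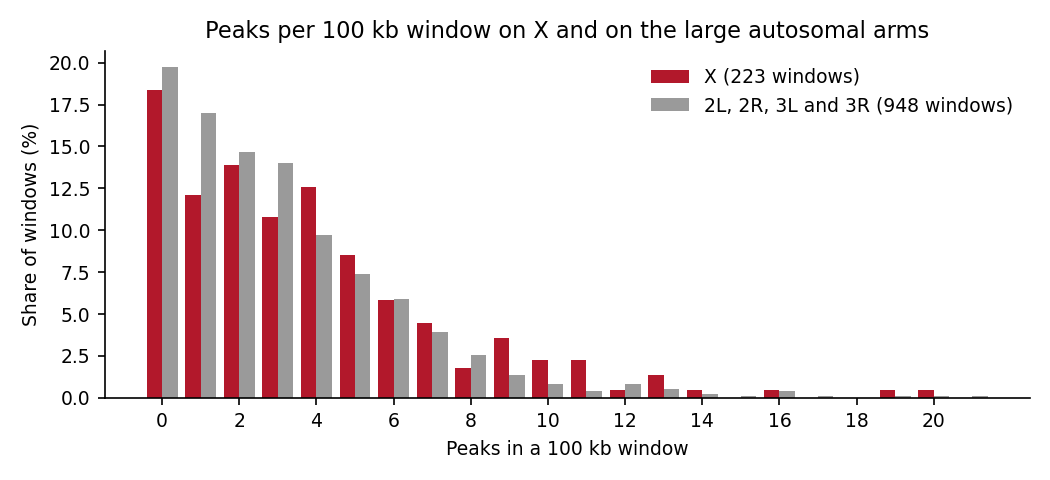
Share of 100 kb windows (vertical axis, percent) by the number of peaks they hold, for the 223 windows of X (red) and the 948 windows of 2L, 2R, 3L and 3R (grey). Empty windows make up 18.4% on X and 19.7% on the autosomal arms, and windows of 10 or more peaks 8.07% and 3.80%.

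Of the 18 crowded windows, 8 ended by 4 Mb and 11 by 8 Mb, and none began at 15 Mb or later. These limits were drawn after the profile was seen. The fullest ran from 3500001 to 3600000 with 20 peaks and the next from 3600001 to 3700000 with 19. The window from 7500001 to 7600000 held 16 peaks and the one from 10600001 to 10700000 held 14. Those from 1800001, 2000001 and 14900001 held 13 each, and that from 12500001 held 12. Completing the 10 fullest, the windows from 1900001 and 3000001 held 11 each, as did 3 further windows.

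Windows with like numbers of peaks differed in how strong those peaks were. The 11 peaks from 7900001 to 8000000 had a median score of 2094 and covered 10.2 kb. The 11 peaks from 3000001 to 3100000 had a median of 144 and covered 5.57 kb. In the window from 2100001 to 2200000, 10 peaks with a median score of 2103 covered 13.9 kb. In the window from 14900001 to 15000000, 13 peaks with a median of 149 covered 5.54 kb. The number of peaks alone therefore did not describe how much of a window was covered.

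The 39 peaks from 3.5 to 3.7 Mb formed the most crowded place on X. They lay within 110 kb, from 3565733 to 3675329, covered 26.6 kb and made up 4.61% of the peaks of the chromosome. Their median score was 1059, against 351 on X as a whole. Of the 39 peaks, 8 scored 3100 or more and 2 scored under 100. They included the highest score printed on X, 3212.69, at a peak from 3642557 to 3643366. With peaks joined into a run wherever the gap between them was under 2 kb, the 39 peaks made 8 runs, and 38 of them had such a neighbour.

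Neighbouring peaks lay closer together on X than on the autosomal arms together. The median gap between neighbouring peaks was 6258 bp on X, with quartiles at 688 and 29579 bp. It was 8932 bp on the autosomal arms together, 8384 bp on 3L, 8528 bp on 3R, 8847 bp on 2L and 10113 bp on 2R. Of the 845 gaps on X, 309 (36.6%) were under 2 kb, with an exact binomial 95% interval of 33.3% to 39.9% that covers counting error alone. The share on the autosomal arms together was 33.0%, just below that interval. Singly it was 33.97% on 2L and 33.95% on 3R, inside the interval, and 32.7% on 3L and 31.2% on 2R, below it. The smallest gap on X was 3 bp. Gaps under 100 bp numbered 73 on X (8.64%), against 6.20% on the autosomal arms. Whether calls so close together are separate binding sites was not tested, and each was counted as a peak. Merging peaks closer than 500 bp left 669 on X.

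**Figure D4:**
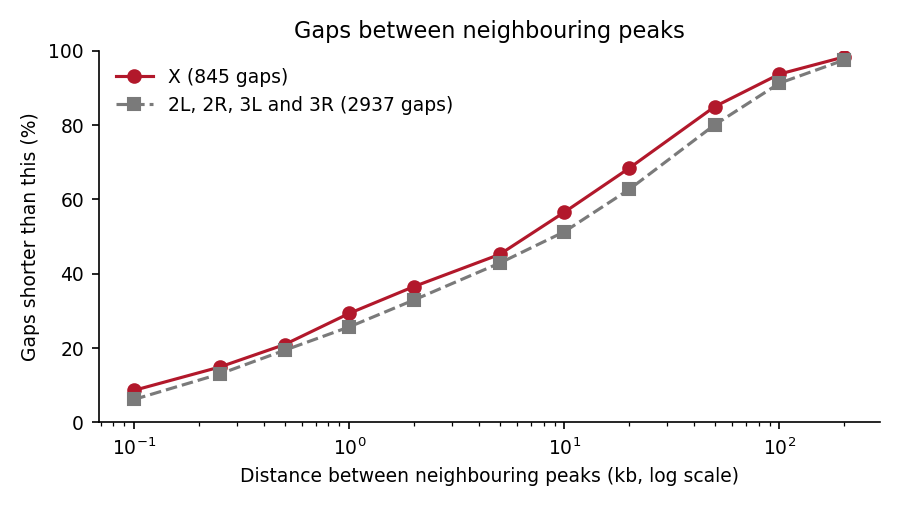
Cumulative share of gaps between neighbouring peaks (vertical axis, percent) below each distance (horizontal axis, kb, log scale), for the 845 gaps of X (red circles) and the 2937 gaps of the 4 large autosomal arms (grey squares). The curve of X lies above the other at each of the 11 distances plotted, for example 56.6% against 51.3% under 10 kb.

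Long gaps took up much of the arm. On X, 53 gaps of 100 kb or more made up 41.6% of its length, against 47.1% on the autosomal arms together and 41.7% on 3L. The 10 longest peak-free stretches added up to 2.88 Mb, or 12.9% of the arm. The longest, 431 kb, ran from 14116434 to 14547672, and the next, 418 kb, from 21465102 to 21882857. The third, 365 kb, ran from 9588349 to 9953800. These 3 stretches also contained the 3 blocks of 3 consecutive empty 100 kb windows.

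The other stretches among the 10 longest were spread along X. A stretch of 269 kb ran from 2684642 to 2953784 and one of 253 kb from 3844349 to 4097715. The first lay within the dense block from 1 to 4 Mb and the second across its edge. Further ones ran from 18794625 to 19040529 (246 kb), from 19782155 to 20016196 (234 kb) and from 12097987 to 12325797 (228 kb). The last of the 10 ran from 21893601 to 22114369 (221 kb) and from 17185921 to 17401008 (215 kb). Before the first peak of X, which starts at 170025, there were 170 kb without a peak.

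Crowded peaks and a long peak-free stretch could adjoin directly. A run of 10 peaks ended at 7604445 and the next peak lay 180970 bp further on. A strong single peak could also border a long stretch, as at 19782155, where the peak before it had a score of 3100 and a width of 1422 bp. Peaks beside a stretch of 100 kb or more numbered 101, with a median score of 260. Of these, 5 (4.95%) scored 3100 or more and 24 (23.8%) scored under 100, against 6.74% and 20.9% of the peaks of X as a whole.

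Most peaks of X had another peak under 2 kb away. The 846 peaks formed 537 runs, of which 362 were single peaks, 108 pairs and 41 triplets. In runs of 2 or more lay 484 peaks (57.2%), against 54.7% in the whole list. In runs of 5 or more lay 101 peaks (11.9%), against 6.38% in the whole list, which includes X. The share was 4.73% for the autosomal arms together, and its values for each arm lay between 3.02% (3R) and 7.29% (2L). There were 15 such runs on X and 25 on the 4 autosomal arms, 9 of these 25 on 2L. Of the 15, 11 lay within the first 8 Mb, which is 35.8% of the arm, a limit drawn after the profile was seen. That part was also rich in peaks. Of the 846, 192 lay before 4 Mb, 67 from 4 to 6 Mb and 108 from 6 to 8 Mb.

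How many long runs X had, beside the autosomal arms, depended on how peaks were joined and kept. With a limit of 1 kb, X had 8 runs of 5 or more peaks and the autosomal arms 12. With peaks closer than 500 bp merged beforehand, the numbers were 5 and 2. With a limit of 5 kb they were 22 and 69, and at scores of 100 or more 8 and 11. These are counts, on 22.4 Mb of X and 95.1 Mb of the autosomal arms. Per Mb, X had more such runs in each of these settings, by margins of very different size. The merged list thus left few long runs anywhere.

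The largest run comprised 12 peaks from 3578930 to 3591253, with scores from 156 to 3100 and widths from 276 to 996 bp. In order along the chromosome its scores were 475.11, 740.11, 1059.49, 2829.44, 3100, 471.15, 208.47, 156.31, 1080.59, 1520.59, 3100 and 1075.79. Strong peaks thus stood beside weak ones. The run before it, of 8 peaks from 3565733 to 3575102, contained a tied peak of 2302 bp, from 3570539 to 3572840, and the weakest peak of X, with a score of 50.36. Another run in the same place, of 8 peaks from 3666764 to 3675329, had 2 peaks at 3100 and a median of 1520.

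The other runs of 8 or more differed in strength and in how completely they were covered. From 2186477 to 2200950, 8 peaks of 1001 to 2873 bp covered 87.5% of 14.5 kb. One of these 8, from 2192466 to 2193866, was 1401 bp wide with a score of 95.25, and it was the widest of the peaks under 100 on X. The run of 10 peaks from 7595312 to 7604445 had scores from 59.53 to 3100, with gaps of 6, 4 and 27 bp in its middle. At a distance of 2165 bp before it ended a run of 6 peaks with a median score of 1685. From 12553973 to 12562297, 8 peaks had a median of 252 and none exceeded 1568. Hence a long run was not in itself a strong one. A run of 5 peaks from 4578300 to 4585165 had a median of 86.17 and a highest score of 213.

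**Figure D5:**
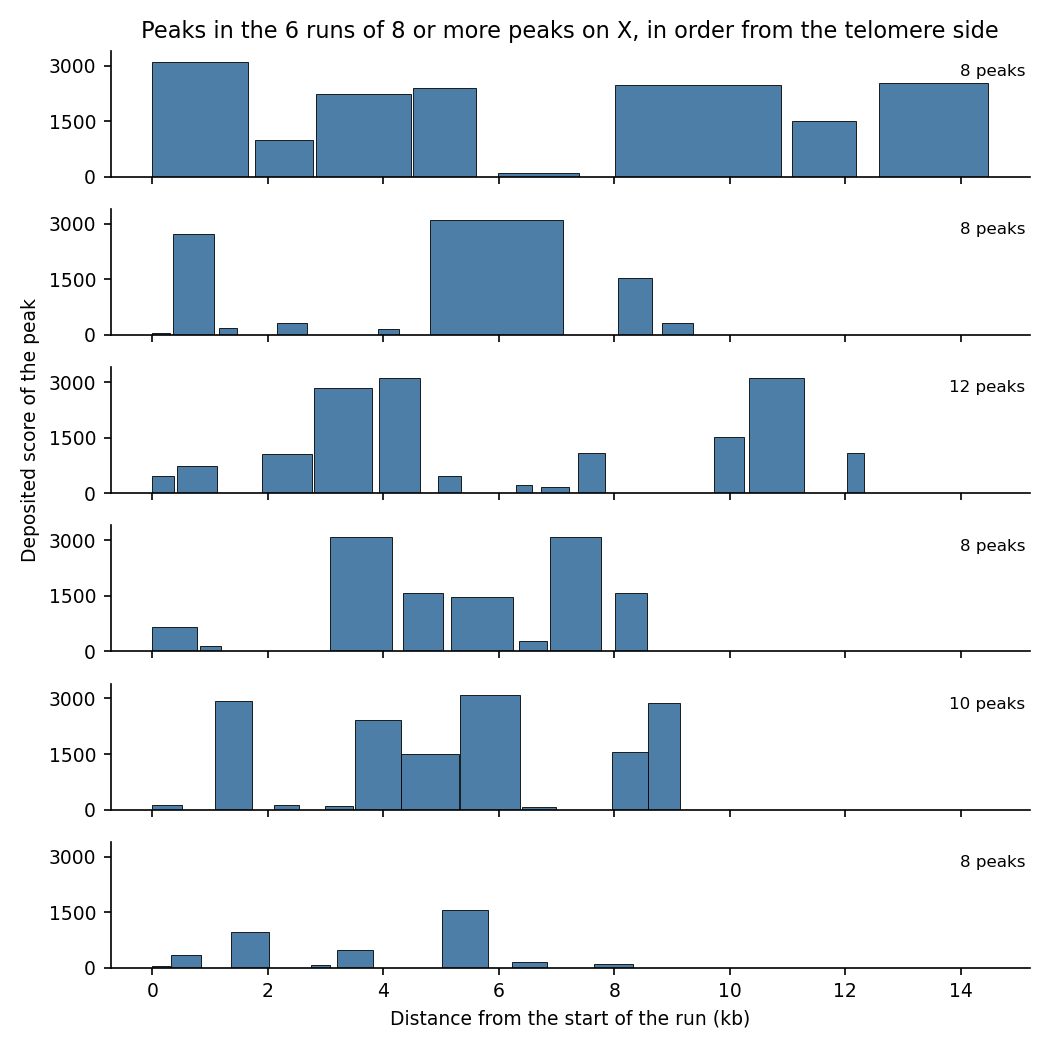
Peaks of the 6 runs of 8 or more peaks on X, drawn to scale by distance from the start of each run (horizontal axis, kb), with bar width as peak width and height as deposited score. Within each run scores range widely, as in the third panel, from 156 to 3100, and the last panel has no peak above 1568.

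Within runs, neighbours were unequal. Across the 175 runs of 2 or more peaks on X, the highest score was 5.04 times the lowest in the median run, with quartiles at 1.96 and 16.3 times. Of these runs, 70 (40%) contained a peak under 100 and 27 one of 3100 or more. Among all peaks of X, 20.9% scored under 100 and 6.74% scored 3100 or more. A run holds several peaks, which raises its chance of containing either and can only widen its range of scores. What unrelated peaks would give was not computed, so these numbers are a description. For neighbours under 500 bp apart, the scores of the pair had a Spearman rho of 0.05 (177 pairs), and for those 10 kb or more apart it was 0.04 (367 pairs). Both coefficients were close to 0. Pairs share peaks with the next pair, so the values are a description.

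Peaks with the closest neighbours nevertheless had the highest median score of the distance classes on X. The 310 peaks of X whose nearest peak lay under 500 bp away had a median score of 558 and a median width of 577.5 bp. Medians were 281 at 500 bp to 2 kb (174 peaks), 305 at 2 to 10 kb (189 peaks) and 224 at 10 to 50 kb (146 peaks). For the 27 peaks at 50 kb or more it was 217. Scores of 3100 or more did not follow that order, with 8.06% of the peaks under 500 bp, 4.60% at 500 bp to 2 kb and 9.52% at 2 to 10 kb. The share was 2.74% at 10 to 50 kb (4 peaks) and 7.41% at 50 kb or more (2 peaks). On the autosomal arms the medians for the same classes were 506, 525, 364, 293 and 217. The largest gap between X and the autosomal arms was therefore in the class of 500 bp to 2 kb, 281 against 525.

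Over the whole chromosome, scores of X spanned 50.36 to 3212.69, with a median of 351 and quartiles at 116 and 1155. The exact binomial 95% interval of the median was 301 to 408. The median was 401 on the autosomal arms together, inside that interval. Singly it was 306 on 2L and 405 on 2R, also inside it, and 435 on 3R and 440 on 3L, above it. Scores under 100 were held by 177 peaks of X (20.9%), against 21.1% in the whole list. These weak peaks had a median width of 345 bp, and 85 of them (48.0%) lay in runs of 2 or more.

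Widths ran from 161 to 2983 bp, with a median of 505 bp (interval 488 to 525) and quartiles at 381 and 716 bp. That interval also treats peaks as independent. The median was 529 bp on the autosomal arms together, 504 bp on 2L, 524 bp on 3R, 526 bp on 3L and 556.5 bp on 2R. A width of 1 kb or more was reached by 96 peaks (11.3%), against 10.9% in the whole list. By quartile of score on X, the median width was 365, 442, 566 and 845.5 bp. The share in runs was 46.2%, 55.9%, 58.8% and 67.9% in the same order. Higher quartiles of score thus had wider peaks and larger shares in runs. Among the 57 peaks at 3100 or more, however, 57.9% lay in runs, close to the 57.2% of X as a whole. Width and score come from the same calls.

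Among the 15 top-scoring peaks of X, where wider ones were taken first at equal score, were 6 above 3100 and 9 at it. After the highest, already given, came a peak from 11607587 to 11609317 with a score of 3206.39 and a width of 1731 bp. A peak from 1837105 to 1837821 had 3199.35 and one from 4511183 to 4511896 had 3167.99, with widths of 717 and 714 bp. The fifth, from 19744735 to 19746319, had 3149.21, and the sixth, from 10707983 to 10709256, had 3104.47. Among the 9 tied peaks the widths were 1859 to 2983 bp, a range set by the tie-break.

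The widest peak of X, 2983 bp from 7588882 to 7591864, had the tied score and lay in the run of 6 peaks that starts at 7584698. The second, 2873 bp from 2194492 to 2197364, scored 2488, and the third, 2543 bp from 3635726 to 3638268, scored 2864. The fourth, 2505 bp from 15705436 to 15707940, and the fifth, 2432 bp from 8303707 to 8306138, both scored 3100. All 5 were thus strong, and 4 of them lay in runs.

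Of the 57 peaks at 3100 or more, 33 (57.9%) lay in runs of 2 or more and 24 were single, with a median distance of 798 bp to the nearest peak. A strong peak could also stand alone. For 5 of the 57 the nearest peak was 20 kb or more away. The most remote lay from 16226532 to 16228012, with 70.9 kb to its nearest neighbour, and the next from 16110492 to 16112001, with 65.4 kb. The others lay from 2439140 to 2440235, from 10440169 to 10442027 and from 9177864 to 9178860. Their widths ran from 997 to 1859 bp.

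The centromere-side end of X was the sparsest part. Beyond 20 Mb there were 45 peaks that covered 0.954% of the sequence, with a median score of 221. The second and the ninth of the 10 longest peak-free stretches began there, and none of the crowded windows lay there. Strong calls were present even so. A pair near the end, from 22256846 to 22257515 and from 22257804 to 22258323, had scores of 2995.25 and 1334.27. The last peak of X, from 22351951 to 22352114, had a score of 72.92 and a width of 164 bp. How much sequence lies beyond it was not used here.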

How the data were processed

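The submitters' processing notes name Bowtie and BDGP5, and per the file headers the peak caller was MACS. Crosslinking took 15 minutes in 1.8% formaldehyde and sonication 15 minutes, per the labels' protocols. Software versions, settings of the caller, handling of duplicates and pooling of libraries are not stated there. The authors deposited 1 score per peak without naming its scale, and it was used unchanged.

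From the list, peaks on X were selected by chromosome, and numbers, gaps (bases between the end of a peak and the start of the next), runs and window counts were computed with pandas 2.3.3, NumPy 2.4.6 and SciPy 1.17.1 under Python 3.11.15, and plotted with Matplotlib 3.10.9. Each arm was counted up to the end of its last peak. Windows start at base 1 and a peak belongs to the window of its start. Intervals are exact binomial at 95%, for medians by order statistics. They treat the peaks or gaps of 1 list as independent and serve as a description, not as a test. The functions for runs, gaps and windows were tested on simulated data with planted runs. No test was run, since each group had 1 sample.

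Items named by rule are the 15 top-scoring peaks, the 5 widest, runs of 7 or more peaks, the 10 fullest 100 kb windows, the 10 longest peak-free stretches and the 5 fullest and emptiest 1 Mb windows. Other named items were picked with their values in view. The members and rules were chosen with earlier results of these data known. Alternatives were the joining limit, merging of peaks closer than 500 bp, a score of 100 or more, omission of the tied score, the highest 25% of scores, runs counted once, shifted windows and omission of the fullest 1 Mb window, the last chosen after seeing the data.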

Additional observations from a re-analysis of the deposited data

How the results depend on the processing

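Of 26 recomputed values for 7 results on X, 16 stayed within 1.5 times the count or within the binomial interval, and 10 did not. The share of gaps under 2 kb was 36.6% as deposited, 19.8% after merging peaks closer than 500 bp, and 29.3% or 45.2% when the limit was 1 or 5 kb, a change set by the limit itself. Keeping scores of 100 or more gave a median score of 574 and a median width of 567 bp on X, since low scores were removed, and merging gave 536 bp. The 15 runs of 5 or more peaks became 8 with a joining limit of 1 kb, 5 after merging, and 8 once scores under 100 were dropped, as fewer units or shorter joins allow. The density ratio of X over the autosomal arms was 1.22 for all peaks and 1.10 among the highest 25% of scores (197 peaks on X), and the cause was not tested. It was 1.16 with runs counted once, 1.20 after merging and 1.22 without the scores under 100. Without the window from 3 to 4 Mb, chosen after seeing the data, it was 1.18. No paired analysis was possible because there was 1 sample a group, which also left no replicate to leave out. Read depth is unknown, so peak-free stretches and weak peaks cannot be tied to a detection limit.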
